A study of Drosophila melanogaster with 6 samples.

Results

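The genes described here are 9 genes of Notch signaling and of the switch that takes ovarian follicle cells from mitotic divisions to endocycles. They were taken by FlyBase identifier from the 17493 genes of the normalized matrix: N (FBgn0004647), Dl (FBgn0000463), ct (FBgn0004198), peb (FBgn0003053, also called hindsight or hnt), ttk (FBgn0003870), stg (FBgn0003525), CycE (FBgn0010382), CycB (FBgn0000405) and fzr (FBgn0262699). In the Drosophila egg chamber, the Notch receptor of the follicle cells is activated midway through oogenesis by Delta that the germline cells present. The signal turns on the zinc finger factor encoded by peb, shuts off ct and stg and raises fzr, and the follicle cells stop dividing and replicate their DNA without mitosis. Later, ttk takes part in the end of the endocycle, when the follicle cells amplify the chorion genes and build the eggshell.

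RNA-Seq was performed on cells from ovaries of 6 groups of flies with 3 libraries each, 18 in all, and each library came from 30 pairs of ovaries of an individual cross. All groups carried the tj-GAL4 driver of ovarian somatic cells, follicle cells included, over the attP landing pad at 51C. In 4 groups the pad held a UAS transgene for a mutated human AKT1 with a 3xFLAG tag, namely the double point mutant Q79K-W80R or an in-frame tandem duplication within the pleckstrin homology domain found in juvenile granulosa cell tumors (T5, T15 or T1). WT flies expressed unmutated human AKT1, and LP flies had the empty pad. AKT1 is a kinase that acts downstream of PI3K, and the duplications and the double mutation are hyperactive forms. Cells were released with trypsin and collagenase and passed through a mesh, no sort was described, and the age of the females was not given in the sources used here.

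Values are normalized counts, that is, RSEM estimates that the authors scaled between libraries. They summed to between 23572559 and 34164960 per library, and the depth in reads before scaling is unknown. The follicle cell factor tj had 8521 to 20471 normalized counts, and the yolk protein gene Yp1 had 162413 to 464006. Germline RNA was present in each library, since the oskar transcript (osk) had 4116 to 15596 normalized counts and no gene of the 15-gene germline list was at 0. A pair of libraries did not sit with their own group: over all genes, T1 replicate 3 and WT replicate 1 correlated most with T15 replicate 1 (r = 0.46 and r = 0.377, on values centered over the 18 libraries), whereas each of the other libraries was closest to a library of its own group. Each library is a mixture of cells, so fewer cells of a type and less RNA per cell cannot be told apart in any result below.

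All 9 genes had a normalized count of at least 1020.3 in each of the 18 libraries. The limma tests used log2(normalized count + 1), p values were adjusted over all genes tested by Benjamini-Hochberg, and Log2FC is the difference of group means on this scale. In an F test over the 6 groups, 5 of the 9 genes differed (adjusted p under 0.05), against 21.3% of the 9691 genes tested. These were fzr (adjusted p = 0.000107), Dl (0.0013), peb (0.00241), ttk (0.0143) and CycE (0.0411). The other genes were CycB (0.0513), stg (0.0598), ct (0.0702) and N (0.198). CycB passed without WT replicate 2 (0.036), WT replicate 3 (0.0287), T1 replicate 3 (0.0452), T15 replicate 3 (0.0166) or T5 replicate 2 (0.0276), stg passed without T1 replicate 1 (0.0189) or T15 replicate 3 (0.0315), and ct passed without T1 replicate 3 (0.0157). Without any 1 library, fzr, Dl, peb and ttk stayed under the threshold (highest adjusted p 0.00095, 0.00652, 0.0103 and 0.0391). The CycE call was lost when any 1 of 16 libraries was left out (up to 0.0886). It was 9.24e-05 without T1 replicate 3.

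**Figure D1:**
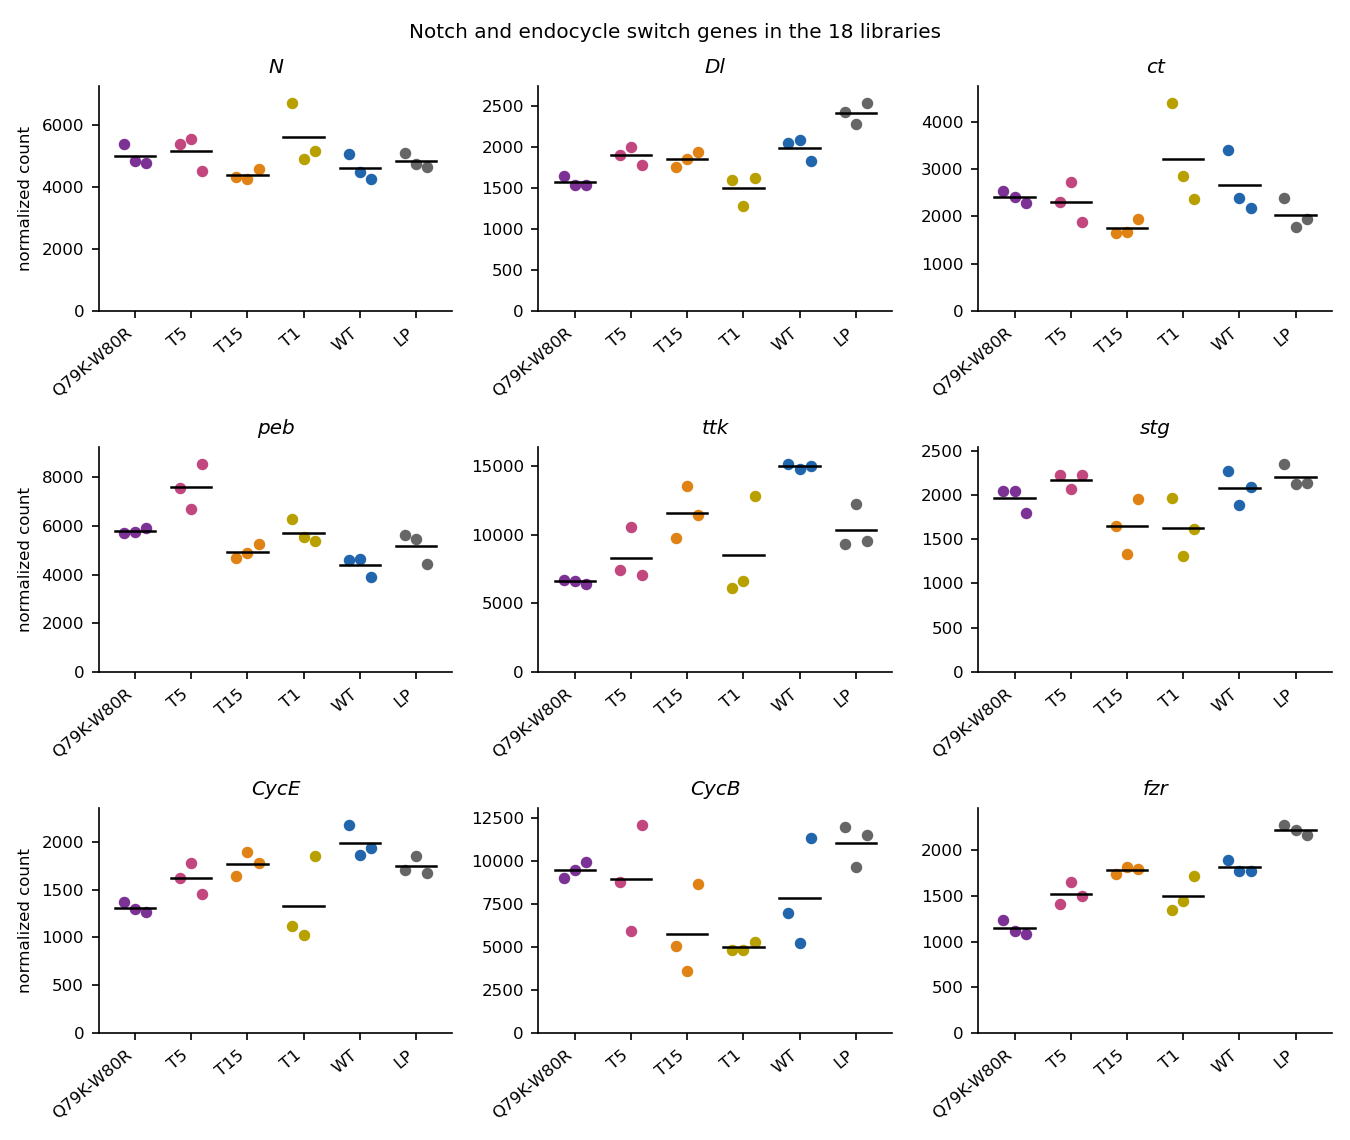
Normalized count (y axis, from 0) of each of the 9 genes in the 18 libraries, by group (x axis). Each point is a library, ordered by replicate number within its group, and each line is the mean of 3. The 3 LP libraries are the highest for Dl and fzr and the 3 WT libraries are the highest for ttk, while CycB is spread widely within T5, T15 and WT.

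The double mutant Q79K-W80R was the group in which most of the 9 genes differed, with fzr, ttk, CycE and Dl lower than in both controls and peb higher than in WT. Counted over the 9, Q79K-W80R had 5 calls over WT, 1 higher and 4 lower, where 23.1% of 9047 genes were called, 12.6% higher and 10.5% lower. Over LP it had 4 calls, all lower, against 31.4% of genes, 17.4% higher and 14% lower. T5 had 1 call over WT, where 0.725% of genes were called, and 1 over LP, where 3.76% were called (2.28% higher and 1.48% lower). T15 had none over WT, where 0.315% were called (3 of the 9, and 17% of all genes tested, had an unadjusted p under 0.05), and 3 over LP, all lower, where 21.8% were called (11.9% higher and 9.86% lower). The shares of the 9 called over LP, 44.44% in Q79K-W80R and 33.33% in T15, are of the order of the shares of all genes, and nothing is read from them about the 9. T1 had none over WT, where 0% of 9175 genes were called and 963 (10.5%) had an unadjusted p under 0.05, 4 of the 9 among them. Over LP, T1 had 1 call, against 0.998% of genes (0.472% higher and 0.526% lower). The 12 mutant libraries pooled had none over WT, where 4% of genes were called (2.32% higher and 1.68% lower), and 3 of the 9, beside 21.3% of all genes tested, had an unadjusted p under 0.05 in this limma fit. WT over LP had none, against 0.419% of genes, with 3 of the 9, beside 15.5% of all genes tested, at an unadjusted p under 0.05. These comparisons share the WT or the LP libraries, and their values stand side by side only. The median Log2FC of the 9 was -0.115 over WT and -0.21 over LP in Q79K-W80R, beside medians of 0.003 and -0.008 over all genes tested.

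**Figure D2:**
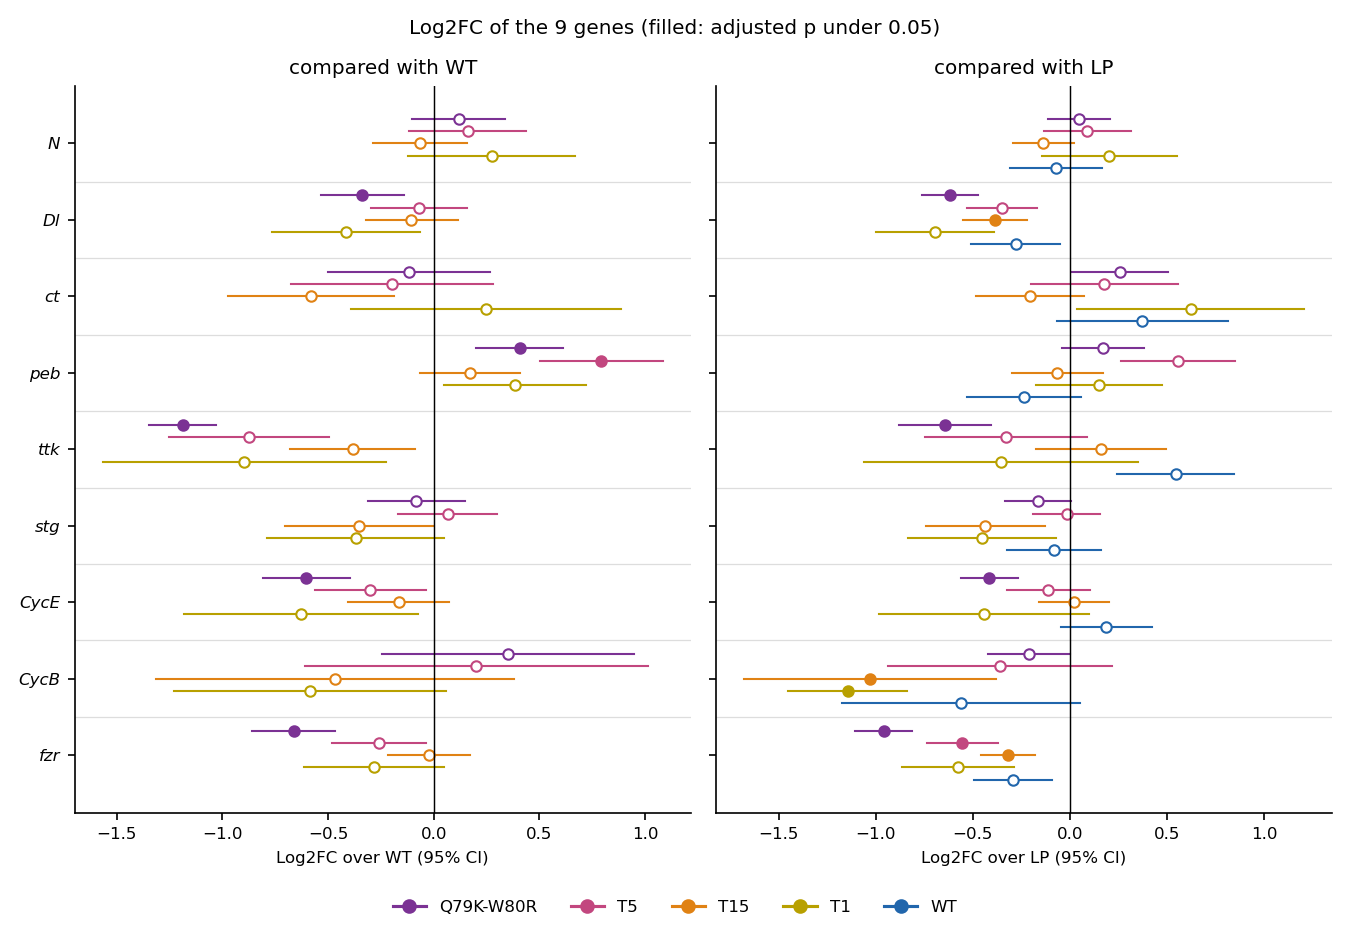
Log2FC (x axis) of the 9 genes (y axis) in each mutant over WT (left) and in each mutant and WT over LP (right). Points are limma estimates, lines are 95% confidence intervals, and filled points have an adjusted p under 0.05. In Q79K-W80R, ttk, CycE, fzr and Dl are to the left of 0 in both panels, and peb is to the right of 0 with a call only over WT.

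The receptor gene N varied least of the 9, with a highest library at 1.58 times the lowest. It had 5366, 4809.8 and 4745 normalized counts in Q79K-W80R, 5366, 5549 and 4499 in T5, 4309, 4236 and 4575 in T15, and 6705, 4904 and 5152 in T1, against 5055, 4456 and 4255 in WT and 5078, 4719 and 4643 in LP. The single high value was T1 replicate 1, and every pair of groups next to each other in the order of means overlapped. None of the 4 mutant forms passed the test for N against WT or LP, with Log2FC between -0.138 and 0.274.

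The ligand gene Dl was highest in LP. It had 1646.5, 1531 and 1540.4 normalized counts in Q79K-W80R, 1904, 2005 and 1780.4 in T5, 1759, 1850.2 and 1938 in T15, and 1595, 1277 and 1623 in T1, against 2048, 2092 and 1830.3 in WT and 2424, 2276.5 and 2543 in LP. All LP libraries lay above the other 15, and Q79K-W80R and T1 were the lowest groups and overlapped each other. Over LP, Dl fell by 0.618 on the log2 scale in Q79K-W80R (SE 0.063, adjusted p = 0.000226) and by 0.385 in T15 (SE 0.071, adjusted p = 0.0132). The T15 value was 0.0563 without LP replicate 1 and 0.0642 without T15 replicate 1. T1 had the larger difference from LP (Log2FC -0.695, SE 0.128) but did not pass the test (adjusted p = 0.0686), and without T1 replicate 3 its adjusted p was 0.0138. Over WT, Dl fell by 0.338 in Q79K-W80R (SE 0.083, adjusted p = 0.0265). That call was lost without WT replicate 1 (0.0543), without Q79K-W80R replicate 1, 2 or 3 (0.0796, 0.133 and 0.118), with upper quartile scaling (0.0815) and without a variance trend (0.0511). T5 had a Log2FC of -0.349 over LP (adjusted p = 0.0572, and 0.0309 without T5 replicate 2).

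Among the transcription factors, ct encodes a homeodomain protein of dividing follicle cells that Notch signaling turns off. It had 2537, 2414 and 2277 normalized counts in Q79K-W80R, 2296, 2727 and 1885.5 in T5, 1648, 1667 and 1936 in T15, and 4413.5, 2855 and 2363 in T1, against 3398, 2399 and 2175.5 in WT and 2392, 1766.5 and 1936 in LP. The first libraries of T1 and WT were the highest of the 18 and the SD was 1071 within T1 and 651.3 within WT. No comparison passed for ct with all libraries, and Q79K-W80R against LP (Log2FC 0.256, adjusted p = 0.108) passed only without LP replicate 1 (0.00764). The largest difference from WT was in T15 (Log2FC -0.579, SE 0.169, adjusted p = 0.166), where the groups did not overlap.

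The Notch target peb, a marker of the endocycling state, was lowest in WT. It had 5695, 5766 and 5922 normalized counts in Q79K-W80R, 7558, 6703 and 8568 in T5, 4661, 4879 and 5241 in T15, and 6278, 5526.5 and 5362 in T1, against 4586, 4652 and 3909 in WT and 5632, 5445.5 and 4453 in LP. All 12 mutant libraries exceeded the 3 WT libraries, and the 3 T5 libraries exceeded all others. The pooled difference of the mutants from WT was a Log2FC of 0.44 (SE 0.147) with an adjusted p of 0.105. It rose over WT by 0.41 on the log2 scale in Q79K-W80R (SE 0.088, adjusted p = 0.016) and by 0.79 in T5 (SE 0.123, adjusted p = 0.0488). The first call was lost without Q79K-W80R replicate 1, 2 or 3 (0.0692, 0.0781 and 0.0815). The second was lost without WT replicate 1, 2 or 3 (0.13, 0.0731 and 0.112) or T5 replicate 1 or 3 (0.231 and 0.259). Over LP, T5 had a Log2FC of 0.56 (SE 0.125, adjusted p = 0.0592), with 0.0215 without T5 replicate 2 and 0.0415 with upper quartile scaling.

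The BTB zinc finger gene ttk moved the other way. It had 6696, 6637 and 6438 normalized counts in Q79K-W80R, 7394.5, 10559 and 7034 in T5, 9794.5, 13548 and 11454 in T15, and 6122, 6645 and 12856 in T1, against 15202, 14803 and 14994.5 in WT and 9335, 12234 and 9559 in LP. The WT libraries lay close together (SD 199.5) and above the other 15. T1 replicate 3 lay within the range of T15, apart from the other T1 libraries. In Q79K-W80R, ttk fell by 1.19 on the log2 scale relative to WT (SE 0.067, adjusted p = 0.000112) and by 0.64 relative to LP (SE 0.103, adjusted p = 0.00216), and both calls held without each of the 6 libraries in turn (up to 0.00214 and 0.0136). The LP comparison had an adjusted p of 0.0737 when the spread was taken from all 18 libraries. The pooled mutants against WT gave -0.835 (SE 0.235, adjusted p = 0.0588), with all 12 mutant libraries below the 3 of WT. Without T1 replicate 3 or without T15 replicate 2 the adjusted p dropped below the threshold, with 0.0256 as the lowest value. T5 alone had a Log2FC of -0.873 over WT (adjusted p = 0.0606, and 0.00737 without T5 replicate 2). T1 had -0.896 over WT (adjusted p = 0.363) and -0.354 over LP (0.603), and both passed without T1 replicate 3 (0.0104 and 0.0305). Those 2 fits called 697 of 9074 and 1399 of 9034 genes. In an unplanned fit, T1 replicate 3 and WT replicate 1 were left out together. In T1 over WT, 0 of the 9 genes were then called, beside 3 of 8927 genes. The pooled mutants over WT also had 0 of the 9 then, beside 14 of 9522 genes. For ttk, WT itself was above LP in all 3 libraries (Log2FC 0.54, SE 0.129, adjusted p = 0.13).

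The phosphatase gene stg encodes the Cdc25 that drives entry into mitosis. It had 2050.2, 2049 and 1802 normalized counts in Q79K-W80R, 2229, 2071 and 2231 in T5, 1654, 1330.4 and 1957 in T15, and 1963, 1316 and 1613 in T1, against 2271, 1889 and 2093 in WT and 2357, 2124 and 2133 in LP. T15 and T1 held the lowest libraries, each with a wide spread, and every pair of neighbors in the order of means overlapped. The nearest to the threshold was T15 against LP (Log2FC -0.436, SE 0.133, adjusted p = 0.0512), which passed without T15 replicate 3 (0.0168), with upper quartile scaling (0.036) and among genes with a mean of at least 50 (0.0491).

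The G1/S cyclin gene CycE, which drives DNA replication in mitotic cycles and endocycles, had 1369.7, 1298 and 1261 normalized counts in Q79K-W80R, 1623, 1779.5 and 1457 in T5, 1642, 1896 and 1782 in T15, and 1119, 1020.3 and 1856.5 in T1, against 2182, 1860 and 1933 in WT and 1708, 1853 and 1679 in LP. All Q79K-W80R libraries and T1 replicates 1 and 2 were below the other 13, and T1 replicate 3 was again apart from its group. CycE fell by 0.602 relative to WT (SE 0.088, adjusted p = 0.00315) and by 0.415 relative to LP (SE 0.064, adjusted p = 0.00172) in Q79K-W80R. Leaving out any of the libraries kept both calls (up to 0.0249 and 0.0134), and the LP comparison had an adjusted p of 0.109 with the spread of all 18 libraries. T1 had a similar Log2FC over WT of -0.629 but an SE of 0.236 and an adjusted p of 0.42, which became 0.0185 without T1 replicate 3. With WT replicate 1 left out as well, CycE was not called in T1 over WT. Over LP the adjusted p of T1 was 0.398, and 0.00962 without T1 replicate 3.

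The mitotic cyclin gene CycB had the widest range, with a highest library at 3.39 times the lowest. It had 9005.5, 9478 and 9944 normalized counts in Q79K-W80R, 8751.5, 5885.5 and 12092 in T5, 5016, 3564 and 8647 in T15, and 4816, 4778 and 5279 in T1, against 6955, 5203 and 11299 in WT and 11928, 9605.5 and 11476 in LP. T5, T15 and WT each held libraries more than 2 times apart, whereas the T1 libraries were uniformly low. Relative to LP, CycB fell by 1.145 in T1 (SE 0.128, adjusted p = 0.0193) and by 1.03 in T15 (SE 0.28, adjusted p = 0.0381). The T1 call was lost without LP replicate 1, 2 or 3 (0.13, 0.0676 and 0.13) or T1 replicate 1 or 2 (0.0773 and 0.0688). The T15 call was lost without LP replicate 1 or 3 (0.116 and 0.0989) or T15 replicate 1 or 2 (0.118 and 0.0793). It was also lost with the spread of all 18 libraries (0.0575) and without a variance trend (0.0822). No mutant passed the test for CycB against WT, with 95% intervals as wide as -1.31 to 0.38 in T15. Q79K-W80R passed over WT only without WT replicate 3 (Log2FC 0.65, adjusted p = 0.0176, against 0.35 with all libraries) and over LP only without LP replicate 2 (Log2FC -0.305, adjusted p = 0.00807, against -0.21).

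The activator of the anaphase-promoting complex encoded by fzr, the fly Cdh1, which has the mitotic cyclins degraded when cells enter endocycles, had the lowest adjusted p of the 9 over the 6 groups. It had 1231, 1119.6 and 1087 normalized counts in Q79K-W80R, 1411, 1648 and 1496 in T5, 1737, 1821 and 1799 in T15, and 1341, 1440.2 and 1714 in T1, against 1899, 1774 and 1769 in WT and 2282.5, 2225 and 2169 in LP. The LP libraries were above all 15 others and the Q79K-W80R libraries below all 15 others, while T15 and WT overlapped, as did T5 and T1. In Q79K-W80R, fzr fell by 0.96 on the log2 scale relative to LP (SE 0.064, adjusted p = 3.14e-05) and by 0.66 relative to WT (SE 0.083, adjusted p = 0.00157), and both held without each of the 6 libraries (up to 0.000428 and 0.0158). It also fell relative to LP in T5 (Log2FC -0.554, SE 0.077, adjusted p = 0.0197) and T15 (Log2FC -0.317, SE 0.06, adjusted p = 0.0144). The T5 call was lost without any of the 6 libraries but T5 replicate 2 (0.0528 to 0.0884), and the T15 call without LP replicate 1 (0.0662) or T15 replicate 1 (0.0681). The difference of T1 from LP was -0.578 (SE 0.121, adjusted p = 0.0984), and 0.00859 was its adjusted p without T1 replicate 3.

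Among the 4 mutant forms alone, 2 of the 9 genes differed, peb (adjusted p = 0.0337) and fzr (0.0307), where 2.45% of 9396 genes did. In peb the 3 T5 libraries were above the 9 of the other forms, and in fzr the 3 Q79K-W80R libraries were below the other 9. Both calls depended on single libraries. The peb call was lost without any of the Q79K-W80R or T15 libraries or T5 replicate 1 or 3 (0.0644 to 0.108), and the fzr call was lost without any of the Q79K-W80R or T15 libraries or T5 replicate 3 (0.059 to 0.139). Without T1 replicate 3, 6 of the 9 passed, with Dl (0.018), ct (0.0105), ttk (0.00699) and CycE (0.00153) added. In that fit 3784 of the 9363 genes tested were called, so nothing is read from the count about the 9.

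Several of the 9 genes moved with marker lists of the mixture. The mean log2 level of the 15 germline genes and CycB correlated over the 18 libraries with r = 0.979, and with r = 0.977 after the group means were removed. The summed germline level was 37361 to 44496 normalized counts in Q79K-W80R, 28236 to 46739 in T5, 23516 to 38419 in T15 and 25460.5 to 28012 in T1, against 27187 to 51368 in WT and 41588 to 48176 in LP. Libraries low in CycB were thus low in germline RNA, and in both comparisons with a CycB call, T1 and T15 over LP, 6 of the 15 germline genes fell and none rose. That is 40% of the list each time, beside 0.526% of all genes called lower in T1 and 9.86% in T15. The r with the germline level was 0.756 for stg. With the germline level as a covariate, the 6-group adjusted p of fzr was 0.000176, of Dl 0.00252, of peb 0.00369, of ttk 0.0183 and of CycE 0.0485, and those of CycB and stg were 0.227 and 0.3. Over the 6 groups, 5 of the 15 germline genes were themselves called (33.33%, beside 21.3% of all genes). The germline fit therefore cannot separate the germline level from the group.

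The lists that moved with ttk and CycE were those of follicle cells. The r of CycE was 0.941 with the mean log2 level of 12 follicle cell markers, and that of ttk was 0.832 with these and 0.884 with the 8 vitelline membrane genes. The follicle cell list holds the yolk protein genes and, among others, tj, slbo and mirr, and 9 of its 12 genes were called in Q79K-W80R over WT, 2 higher and 7 lower. That is 75% of the list, beside 23.1% of all genes called. Its mean log2 level was 12.811 to 12.886 in Q79K-W80R, 13.043 to 13.167 in T5, 13.083 to 13.106 in T15 and 12.683 to 13.249 in T1, against 13.131 to 13.473 in WT and 13.006 to 13.166 in LP. The 10 chorion genes, which follicle cells express late, also moved with them. Over the 18 libraries, the r with the mean log2 chorion level was 0.877 for ttk, 0.864 for CycE, 0.684 for fzr and 0.544 for Dl. It was -0.618 for N, -0.58 for peb, -0.475 for ct, -0.072 for CycB and -0.026 for stg. The chorion level was 12.85 to 12.935 in Q79K-W80R, 12.862 to 14.231 in T5, 14.172 to 14.38 in T15 and 11.036 to 14.305 in T1, against 14.2 to 14.821 in WT and 13.97 to 14.04 in LP. T1 replicate 3 and T5 replicate 2, with the highest chorion level of their groups, also had the highest ttk and CycE of those groups. In Q79K-W80R over WT, all 10 chorion genes and all 8 vitelline membrane genes fell, beside 10.5% of all genes called lower. The chorion level was also used as a covariate, in a fit added after the data were seen. The 6-group adjusted p was then 0.000175 for fzr, 0.00965 for Dl, 0.0115 for peb, 0.122 for ttk and 0.57 for CycE. The chorion level itself differed between groups, so this fit cannot separate the level from the group. All libraries of a point set share their normalization, and the part that egg chamber stage or germline content has in these results was not tested.

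**Figure D3:**
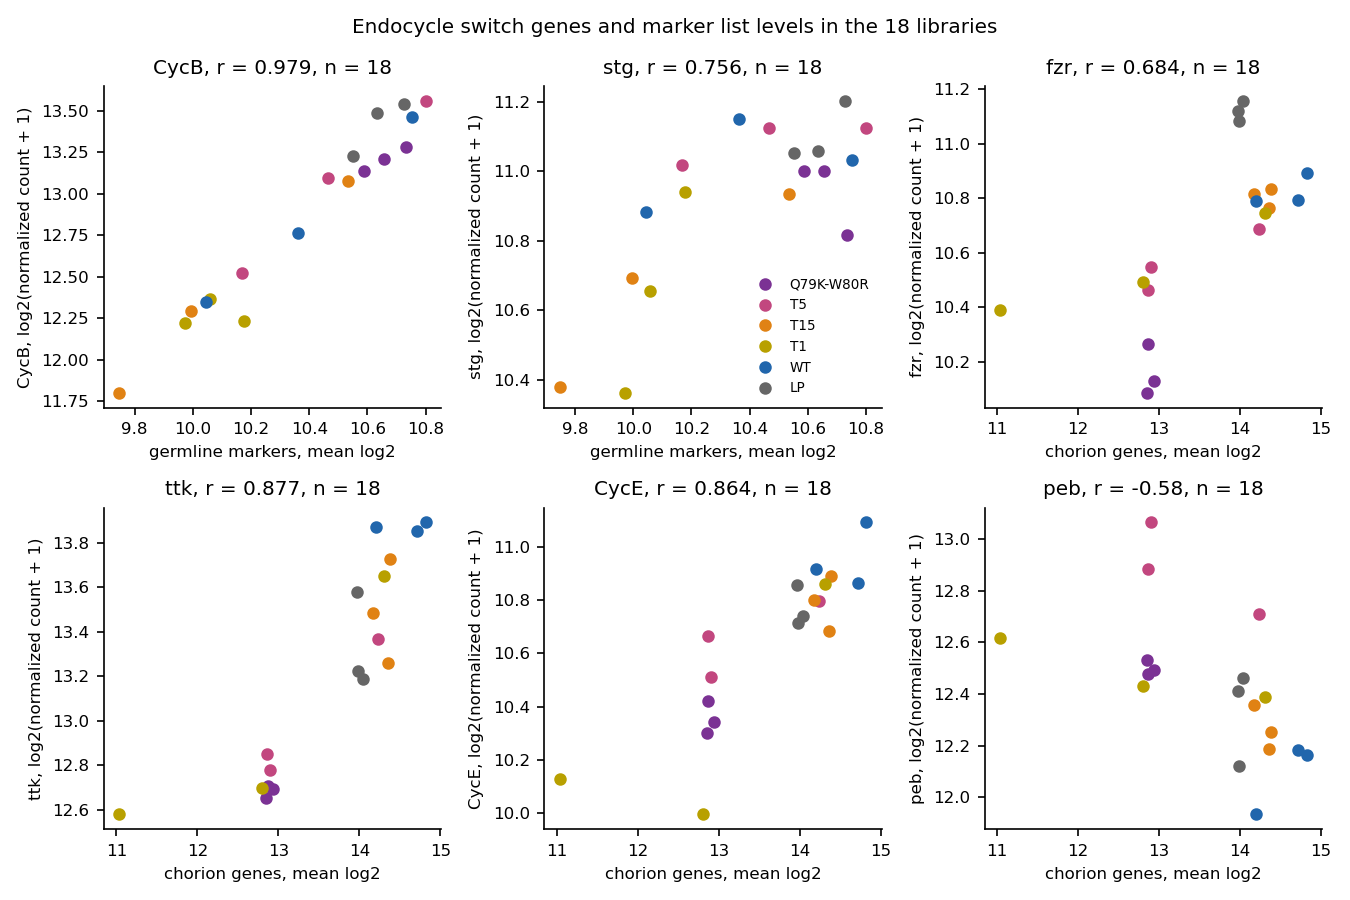
Log2(normalized count + 1) of 6 of the genes (y axis) against the mean log2 level of the germline or chorion list (x axis) in the 18 libraries, colored by group, with Pearson r as a description. CycB follows the germline level across and within groups, and the libraries with a low chorion level have the lowest ttk and CycE.

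Lists of other tissues were also examined beside the calls. The summed level of 13 midgut genes was 6804 to 7049.8 normalized counts in Q79K-W80R, against 9782 to 15239.6 in WT and 11113 to 13481 in LP, and 10 of the 11 tested fell over LP. In T15 over LP, 9 of the 11 tested fell. These are 90.91% and 81.82% of the midgut genes tested, beside 14% and 9.86% of all genes called lower. LManII made up most of the midgut sum (at least 6761 in each library), and the trypsin genes had medians between 0 and 21.9. The 7 fat body genes summed to 568 to 598 in Q79K-W80R, against 1053.5 to 1495 in WT and 939.6 to 1280.3 in LP, with Fbp1 and Fbp2 at a median of 0. The 13 muscle genes summed to 18967 to 19362 in Q79K-W80R, against 18155 to 31471 in WT and 16807 to 19384 in LP, and Tm1 made up most of that sum (12546 to 19727). Of the 12 muscle genes tested, 7 were called in Q79K-W80R over LP, 1 higher and 6 lower, and 4 were called over WT, all lower. These are 58.33% and 33.33% of the 12, beside 31.4% and 23.1% of all genes called. The muscle myosin gene Mhc ranged between 103 and 2053.5 over all libraries. The 10 hemocyte genes summed to 79802 to 100451 in Q79K-W80R, against 80632 to 106037 in WT and 98671 to 107344 in LP, with eater at 0 to 27. The collagen genes Col4a1 (39693 to 68605) and vkg (31177 to 52480) made up most of that sum, and Hml had only 10.7 to 150.4. The part of these tissues in the results was not tested.

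The rest of the Notch pathway was read from a list of 20 genes, 18 of which were tested, N and Dl included. Over WT, 5 of the 18 fell in Q79K-W80R and none rose, beside the 23.1% of all genes called, and the median Log2FC of the 18 was 0.001 (0.003 over all genes tested). These included Dl, O-fut1, which adds fucose to the Notch receptor (Log2FC -0.425, SE 0.097, adjusted p = 0.0198), and numb, an inhibitor of Notch (Log2FC -0.371, SE 0.099, adjusted p = 0.0354). The numb gene averaged 1856 ± 53.7 normalized counts in Q79K-W80R, 1990 ± 64.8 in T5, 1915 ± 62.6 in T15 and 1983 ± 103.5 in T1, against 2411 ± 272.8 in WT and 2148 ± 121.9 in LP (SD, n = 3 each). It was the only other gene of the list called over the 6 groups (adjusted p = 0.0319) and the only one called in the pooled mutants over WT (Log2FC -0.311, SE 0.066, adjusted p = 0.02). In T15 over LP, 5 of the 18 were called, 2 higher and 3 lower (27.78%, beside 21.8% of all genes). Among them was the Delta ubiquitin ligase gene mib1 (Log2FC -0.275, SE 0.073, adjusted p = 0.0347). Over LP in Q79K-W80R, 3 of the 18 were called, 1 higher and 2 lower (16.67%, beside 31.4% of all genes).

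The E(spl) complex genes are direct Notch targets, and 6 of 11 had enough signal to be tested over the 6 groups, with none called by limma and 1 at an unadjusted p under 0.05. E(spl)m3-HLH averaged 772.5 ± 55.9 normalized counts in Q79K-W80R, 660.5 ± 129.3 in T5, 646.2 ± 44.9 in T15 and 1518 ± 742 in T1, against 854.2 ± 135.9 in WT and 631.8 ± 59.1 in LP (adjusted p over the 6 groups 0.0573). Q79K-W80R over WT had none of 5 called by limma and 0 at an unadjusted p under 0.05, and over LP it had 1 of 5, E(spl)m3-HLH (Log2FC 0.29, SE 0.09, adjusted p = 0.0401). That is 20% of the 5 tested, beside 31.4% of all genes called over LP.

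Of the 13 follicle cell differentiation factors, which hold ct, peb and ttk, 7 were called in Q79K-W80R over WT, 2 higher and 5 lower, with a median Log2FC of -0.115. That is 53.85% of the list, beside 23.1% of all genes called (12.6% higher and 10.5% lower). The large Maf factor gene tj fell by 1.02 on the log2 scale (SE 0.079, adjusted p = 0.000269), and slbo, the C/EBP of the border cells, fell by 1.51 (SE 0.17, adjusted p = 0.00102). Fas3, an adhesion molecule of immature follicle cells and polar cells, rose by 0.77 (SE 0.17, adjusted p = 0.0175). Over LP, 8 of 13 were called in Q79K-W80R, 3 higher and 5 lower (61.54%, beside 31.4% of all genes). Over the 6 groups, 6 of 13 were called (46.15%, beside 21.3% of all genes). The list shares tj, eya, cas, br, Fas3, slbo and mirr with the follicle cell marker list above, so the counts of both lists rest partly on the same genes. The tj gene averaged 8956 ± 483 normalized counts in Q79K-W80R, 12500 ± 1354 in T5, 16020 ± 1627 in T15 and 11870 ± 3535 in T1, against 18200 ± 759.5 in WT and 18150 ± 2006 in LP.

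Among 28 genes of mitotic entry and exit, 4 rose and none fell in Q79K-W80R over WT, with neither stg nor CycB called. That is 14.29% of the list, beside 12.6% of all genes called higher. The median Log2FC of the 28 was 0.262 over WT, beside 0.003 over all genes tested, and 0.017 over LP, beside -0.008. One of the 4 called over WT was polo, a mitotic kinase gene (Log2FC 0.53, SE 0.125, adjusted p = 0.0225). It averaged 2510 normalized counts in Q79K-W80R, 1755 in WT and 2580 in LP, and it was not called over LP (Log2FC -0.034, adjusted p = 0.794). In T15 over LP, 6 of 28 fell and none rose (21.43%, beside 21.8% of all genes called, 9.86% lower), among them polo (Log2FC -0.694, SE 0.182, adjusted p = 0.0344), twe, the meiotic Cdc25 of the germline (Log2FC -0.773, SE 0.172, adjusted p = 0.0224), and CycA, the other mitotic cyclin gene of the list called (Log2FC -0.887, SE 0.215, adjusted p = 0.0283). CycA also fell in T1 over LP (Log2FC -0.959, SE 0.124, adjusted p = 0.0243). The securin gene pim averaged 137.4 ± 17.9 normalized counts in Q79K-W80R, against 114.9 ± 19.4 in WT and 76.8 ± 3.1 in LP, and it was one of 3 of the 28 called over LP in Q79K-W80R, all higher (Log2FC 0.82, SE 0.133, adjusted p = 0.00224).

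The 14 subunits and activators of the anaphase-promoting complex had 1 call in Q79K-W80R over WT and 1 over LP, which was fzr in both. That is 7.143% of the list each time, beside 23.1% of all genes over WT and 31.4% over LP. The median Log2FC of the 14 was 0.16 over WT and -0.066 over LP. The Cdc20 gene fzy, the mitotic counterpart of fzr, averaged 700.3 ± 75.2 normalized counts in Q79K-W80R, 766 ± 71.1 in T5, 572.1 ± 53.1 in T15 and 708.9 ± 131.7 in T1, against 490.5 ± 92.2 in WT and 699.4 ± 5.6 in LP (adjusted p over the 6 groups 0.0301). In T15 over LP, fzr, fzy (Log2FC -0.294, SE 0.088, adjusted p = 0.0495) and APC7 (Log2FC -1.255, SE 0.327, adjusted p = 0.034) fell. They are 21.43% of the list, beside 21.8% of all genes called (9.86% lower), and nothing is read from this count about the complex.

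The 31 tested genes of the endocycle and of DNA replication had 9 calls in Q79K-W80R over WT, 5 higher and 4 lower, with a median Log2FC of 0.164. That is 29.03% of the list, beside 23.1% of all genes called (12.6% higher and 10.5% lower). CycE and Cdc6, which loads the replicative helicase (Log2FC -0.464, SE 0.085, adjusted p = 0.00824), were among the lower. The replication clamp gene PCNA (Log2FC 0.46, SE 0.119, adjusted p = 0.0307), the helicase subunit gene Mcm7 (Log2FC 0.35, SE 0.098, adjusted p = 0.0422) and Dp, the partner of the E2F factors (Log2FC 0.26, SE 0.068, adjusted p = 0.0348), were higher. These were also the 3 genes of the list called in the pooled mutants over WT, where PCNA rose by 0.42 on the log2 scale (SE 0.072, adjusted p = 0.00734), Mcm7 by 0.33 (SE 0.063, adjusted p = 0.0132) and Dp by 0.285 (SE 0.072, adjusted p = 0.0388). They are 9.677% of the list, beside 4% of all genes called. PCNA averaged 2903 ± 89.5 normalized counts in Q79K-W80R, 2840 ± 70.8 in T5, 2813 ± 72.3 in T15 and 2723 ± 84.6 in T1, against 2123 ± 337.7 in WT and 2505 ± 375.9 in LP. Over LP, 6 of 31 were called in Q79K-W80R, 1 higher and 5 lower, CycE among the lower ones (19.35%, beside 31.4% of all genes). The median Log2FC of the 31 over LP was -0.059.

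**Figure D4:**
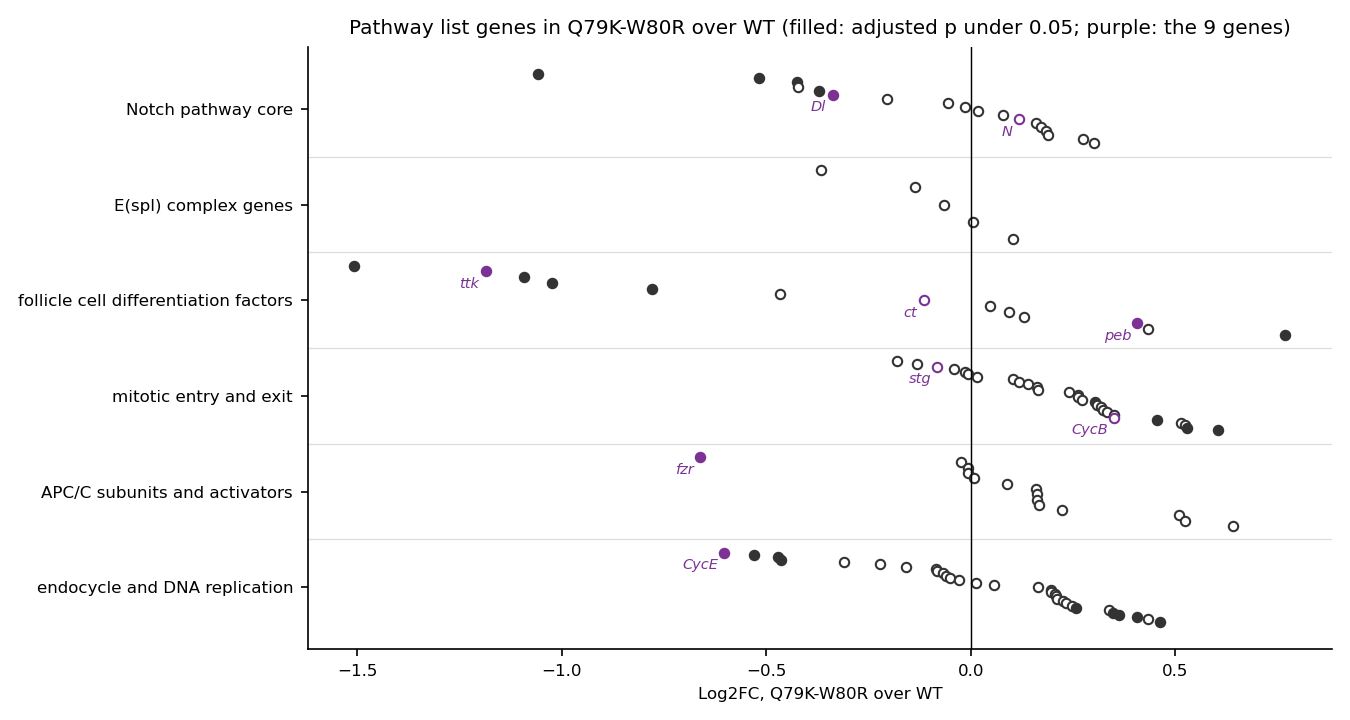
Log2FC in Q79K-W80R over WT (x axis) of the genes tested in each of 6 pathway lists (y axis, genes of a list ordered by value from top to bottom). Filled points have an adjusted p under 0.05, and purple points are the 9 genes. Among the anaphase-promoting complex genes, fzr is the only filled point.

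The 9 genes also varied together in pairs. As a description over the 18 libraries, on log2 values that share their normalization, the highest r was that of ttk with CycE (0.903, and 0.906 after the group means were removed). N and ct followed (0.814 and 0.898), then Dl and fzr (0.797), whose r within groups was 0.369. The r of stg with CycB was 0.754, that of ttk with fzr was 0.717, and peb ran against ttk (-0.646).

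Ratios within each library put the members side by side. The log2 ratio of stg to fzr, the mitotic activator over the activator of mitotic cyclin destruction, was 0.735, 0.871 and 0.729 in Q79K-W80R, 0.659, 0.329 and 0.576 in T5, -0.07, -0.453 and 0.121 in T15, and 0.549, -0.13 and -0.088 in T1, against 0.258, 0.091 and 0.242 in WT and 0.046, -0.067 and -0.024 in LP. All Q79K-W80R and T5 libraries lay above all WT and LP libraries, and 2 of the 3 T15 libraries lay below all WT libraries. The log2 ratio of N to Dl was 1.704, 1.651 and 1.622 in Q79K-W80R, 1.494, 1.468 and 1.337 in T5, 1.292, 1.195 and 1.239 in T15, and 2.071, 1.94 and 1.666 in T1, against 1.303, 1.091 and 1.217 in WT and 1.066, 1.051 and 0.868 in LP. Its LP libraries were the lowest of the 18, and no test was made on these ratios.

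The genes most like each of the 9 were taken among 7726 genes with a mean normalized count of at least 50, by r over the 18 libraries. CycB was most like wisp, which encodes a poly(A) polymerase of the female germline (r = 0.99), CG45084 (0.983) and fs(1)N (0.982). The 3 closest to fzr were the follicle cell factor gene tj (0.922), the T-box gene H15 (0.916) and ana (0.903). Those closest to ttk were Pgant5 (0.979), CG5921 (0.976) and the replication checkpoint gene Claspin (0.974), and those closest to CycE were the myosin gene ck (0.957), kmr (0.956) and the homeodomain gene mirr (0.952). N was closest to the mitotic kinesin gene Klp61F (0.913), Mp (0.905) and sick (0.904), and ct to CG17732 (0.912), elB (0.91) and Gp150 (0.897). For Dl, peb and stg the closest genes had lower r, with PIG-B (0.866), Pkc53E (0.856) and didum (0.829) for Dl, Ir68a (0.887), Nuak (0.86) and Tmc (0.832) for peb, and CG43867 (0.905), cdi (0.904) and CG31122 (0.881) for stg.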

How the data were processed

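Per the labels, libraries were made with TruSeq stranded mRNA. The submitters' processing notes name bcl2fastq 2.18.0.12, Bowtie and RSEM 1.3.1, with no genome build given. RSEM estimated counts were scaled by the authors with DESeq2, and the deposited signal holds these normalized counts by gene, so read depth is unknown and no count test was run. The 18 columns all entered the fits, 1 of them (Q79K-W80R) assigned by the stem of its name alone.

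Groups were compared on log2(normalized count + 1) with limma 3.58.1 in R 4.3.3 (lmFit, eBayes with a trend). Each of 12 comparisons was fitted on its own libraries, after removal of genes that did not reach 10 in 3 or more of them, with Benjamini-Hochberg adjustment over all genes tested. A Log2FC understates the change of low genes. Confidence intervals are at 95%. The code was tested on simulated data. All 9 genes were named, with up to 3 further genes of each pathway list by the F test over 6 groups and up to 2 more per called comparison, and the 3 genes most like each. The 9 genes, the lists and the tests were chosen with earlier results of these data known. The libraries of a group came from separate crosses. Of 15 pairs of groups, only T15 and WT had same-numbered replicates that deviated together (r = 0.154, 0.173 and 0.117). Between T15 and WT, 0 of the 9 genes were called both without and with a replicate block. Over all 8890 genes tested, the block raised the number called there from 28 to 195. Alternatives were other pseudocounts, filters, scalings, variance models, covariates and left-out libraries. The transgene was not analysed here, nor were coordinates or sequences.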

Additional observations from a re-analysis of the deposited data

Results flagged for a closer look

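The 4 mutant forms differed from each other in 2 of the 9 genes, by an F test over the 12 mutant libraries. For peb the adjusted p was 0.0337, and the group means were 5794 ± 115.9 normalized counts in Q79K-W80R, 7609 ± 933.5 in T5, 4927 ± 292.9 in T15 and 5722 ± 488.3 in T1 (SD, n = 3 each), against 4382 ± 411.3 in WT. For fzr the adjusted p was 0.0307, and the means were 1146 ± 75.7 in Q79K-W80R, 1518 ± 120.3 in T5, 1786 ± 43.9 in T15 and 1499 ± 193.2 in T1, against 1814 ± 73.8 in WT.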

How the results depend on the processing

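The member values of the 12 comparisons were recomputed under other settings, which gave 1899 values. Of these, 1765 stayed on their side of the threshold, 81 lost a call and 53 gained one. None of the called values changed sign, and 16 of the 1765, all uncalled, did. The cause of the changes below was not tested. With the spread of all 18 libraries, the number of the 9 genes called was 4 in the pooled mutants over WT, 4 in T1 over WT, 2 in T5 over WT, 3 in T1 over LP, 3 in T5 over LP and 2 in Q79K-W80R over LP. In the same order, these fits called 1273 of 9605, 699 of 9175, 683 of 9102, 775 of 9117, 409 of 9043 and 1290 of 9073 genes tested. Without a variance trend the number of the 9 called was 0 among the 4 mutant forms and 0 in T5 over WT. T5 over WT also had 0 with a pseudocount of 0.5, with a mean of at least 50 and with upper quartile scaling. Upper quartile scaling gave 1 in the pooled mutants over WT and 2 in T5 over LP, and quantile normalization gave 1 in the pooled mutants. The replicate block gave 0 in T5 over WT and 0 in T1 over LP. Over the 6 groups it gave 7, with CycB (0.00665), stg (0.0268) and ct (0.0337) called and CycE (0.0525) not. It also ended the call of Dl in Q79K-W80R over WT (0.0603) and added that of stg in T15 over LP (0.0285). Over the 6 groups, upper quartile scaling gave 7, with stg (0.0435) and CycB (0.0364) added, and quantile normalization gave 6, with CycB (0.0425) added, while no filter (0.052) and no variance trend (0.0631) ended the CycE call. The replicate block, upper quartile scaling and quantile normalization called 2534, 2195 and 2188 of all 9691 genes over the 6 groups. The chorion covariate, added after the data were seen, gave 3 of the 9 over the 6 groups, beside 1292 of 9691 genes. With 1 library left out at a time, in 99 fits, the number of the 9 called ranged over 4 to 7 over the 6 groups, 0 to 6 among the 4 mutant forms, 0 to 1 in the pooled mutants over WT, 0 to 2 in T1 over WT, 0 to 2 in T5 over WT, 3 to 6 in Q79K-W80R over WT, 0 to 5 in T1 over LP, 0 to 4 in T15 over LP and 0 to 3 in T5 over LP. The number of all genes called ranged, in the same order, over 1220 to 4410, 38 to 3784, 26 to 558, 0 to 697, 0 to 487, 1001 to 2883, 0 to 1399, 379 to 2172 and 31 to 972.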
